A study of Mus musculus with 4 samples.

Results

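In bone marrow-derived macrophages, 2145 stretches of DNA carried an ATAC-seq peak in both untreated libraries, one wild-type and one lacking the creatine transporter gene Slc6a8, and had no peak in either library made after IL-4. They are called untreated-pair regions here. Peaks of the 4 libraries that overlapped by 1 bp or more had been merged into 20540 regions, of which 11539 held a peak of both untreated libraries, and the untreated-pair regions were 18.6% of these (exact Clopper-Pearson 95% interval 17.9 to 19.3). They were chosen by the peak calls themselves and were ranked by the lower of their 2 percentile ranks of peak score within the untreated lists, so their scores and their lack of IL-4 peaks are a description and not a finding. With IL-4 peaks judged 1 library at a time, 31.5% of the 11539 regions had no peak in the wild-type IL-4 library (3632 regions) and 29.3% had none in the Slc6a8-/y IL-4 library (3380 regions). Absence of a peak means that the authors' list holds none. No signal below the calling limit was used here, so a region without a peak cannot be called closed.

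The macrophages were grown from bone marrow of C57BL/6 mice for 5 days with 10% M-CSF, and 50000 cells went into each library. The genotypes were wild-type (WT) and Slc6a8-/y (KO, a male hemizygous for loss of an X-linked gene), and the treatments were none or IL-4 at 10 ng/mL for 6 h. Each of the 4 groups, WT untreated, WT IL-4, KO untreated and KO IL-4, held 1 library, so no difference could be set against replicate error, every comparison is between libraries rather than conditions, and no p-value was computed. The study asked how chromatin accessibility changes in polarizing macrophages that lack creatine. Read depth is unknown, and each interval printed (Clopper-Pearson, exact, 95%) reflects counting error alone. The untreated lists were longer than the IL-4 lists, at 17339 (WT) and 13714 (KO) peaks against 9930 and 10443, and their median scores were 101.1 and 94.3 against 85.5 and 86.1. When every list was limited to its 9930 peaks of highest score, 566 of 7714 regions with both untreated peaks (7.34%) had no IL-4 peak, and with untreated peaks of score 100 or more 128 of 5665 (2.26%) had none. The part that read depth has in the absence of IL-4 peaks was not tested. No list had a peak at the Slc6a8 locus, so the targeted gene gave no check of the genotype labels. Macrophage surface genes had a peak at 22, 20, 18 and 18 of 25 loci in WT untreated, KO untreated, WT IL-4 and KO IL-4, in that order. Dendritic cell genes had one at 7, 6, 5 and 7 of 9 loci, B cell genes at 5, 3, 3 and 2 of 9, T cell genes at 4, 3, 3 and 3 of 11, neutrophil genes at 4, 3, 2 and 2 of 13, erythroid genes at 2 of 8 in each library, fibroblast genes at 1, 0, 0 and 0 of 8, and mast cell and basophil genes at none of 7. Peaks at these loci can belong to neighbouring genes.

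ATAC-seq uses the transposase Tn5 to insert sequencing adapters into DNA that nucleosomes and other proteins leave accessible, and peaks mark promoters, enhancers and insulators. In macrophages, lineage factors such as PU.1 and C/EBP proteins hold open a broad set of such elements, and signal-dependent factors, among them AP-1, NF-kB, IRF and STAT proteins, act on and extend this set. IL-4 binds the receptor chain encoded by Il4ra, activates JAK kinases and STAT6, and drives alternative activation, whose textbook genes in the mouse include Arg1, Retnla, Chil3 and Mrc1.

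Of the regions at gene starts, 6 promoters are shown because the values below refer to them. Pik3cb (the catalytic p110 beta subunit of phosphoinositide 3-kinase) and Syf2 (a pre-mRNA splicing factor) had scores in the upper ranks. Cx3cr1 (the fractalkine receptor of monocytes and macrophages), Irs2 (an adaptor that links the IL-4 and insulin receptors to phosphoinositide 3-kinase), Tet2 (an enzyme that oxidises 5-methylcytosine) and Cxcl10 (an interferon-induced chemokine) stand for signalling, chromatin and inflammatory genes. Each sequence is the 250 bases before the annotated start, from RefSeq on GRCm38.p6, whose coordinates are those of mm10, written 5′ to 3′ on the gene's strand. Capitals mark matches to the motifs listed further on. Pik3cb lies at chr9:99140212-99140461 on the minus strand and its capitals are an SP/KLF match. Syf2 lies at chr4:134930730-134930979 on the plus strand, with capitals for a PU.1 match, a run of 3 overlapping SP/KLF matches and an ETS match in that order. Cx3cr1, at chr9:120068297-120068546 on the minus strand, and Tet2, at chr3:133544391-133544640 on the minus strand, had no match to any of the 14 motifs. Irs2 lies at chr8:11008930-11009179 on the minus strand, with an SP/KLF match and then an E-box. Cxcl10 lies at chr5:92348890-92349139 on the minus strand, with an ISRE match, an NF-kB match and an AP-1 match in that order.
Pik3cb: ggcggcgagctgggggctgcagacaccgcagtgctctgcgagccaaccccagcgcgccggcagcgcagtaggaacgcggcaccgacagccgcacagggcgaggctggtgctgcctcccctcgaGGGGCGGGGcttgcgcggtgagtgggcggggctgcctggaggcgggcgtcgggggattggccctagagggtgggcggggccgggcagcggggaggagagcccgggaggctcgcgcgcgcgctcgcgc
Syf2: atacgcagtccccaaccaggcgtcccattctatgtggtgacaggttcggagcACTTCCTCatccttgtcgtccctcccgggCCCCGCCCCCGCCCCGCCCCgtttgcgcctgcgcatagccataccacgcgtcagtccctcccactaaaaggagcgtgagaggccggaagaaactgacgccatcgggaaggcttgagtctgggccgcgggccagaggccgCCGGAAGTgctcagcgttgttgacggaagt
Cx3cr1: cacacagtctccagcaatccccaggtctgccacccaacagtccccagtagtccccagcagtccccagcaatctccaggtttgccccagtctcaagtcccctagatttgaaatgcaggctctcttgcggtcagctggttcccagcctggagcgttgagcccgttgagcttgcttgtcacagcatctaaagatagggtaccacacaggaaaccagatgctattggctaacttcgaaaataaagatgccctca
Irs2: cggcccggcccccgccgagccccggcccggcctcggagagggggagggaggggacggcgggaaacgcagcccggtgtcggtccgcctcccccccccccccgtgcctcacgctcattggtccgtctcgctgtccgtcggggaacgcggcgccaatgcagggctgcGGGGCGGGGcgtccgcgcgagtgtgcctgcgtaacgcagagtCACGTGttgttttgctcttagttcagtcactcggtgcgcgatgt
Tet2: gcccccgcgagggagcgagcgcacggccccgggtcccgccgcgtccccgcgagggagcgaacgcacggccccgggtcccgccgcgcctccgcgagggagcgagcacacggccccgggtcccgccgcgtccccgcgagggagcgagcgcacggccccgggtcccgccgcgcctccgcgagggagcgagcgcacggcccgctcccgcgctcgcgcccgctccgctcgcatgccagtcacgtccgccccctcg
Cxcl10: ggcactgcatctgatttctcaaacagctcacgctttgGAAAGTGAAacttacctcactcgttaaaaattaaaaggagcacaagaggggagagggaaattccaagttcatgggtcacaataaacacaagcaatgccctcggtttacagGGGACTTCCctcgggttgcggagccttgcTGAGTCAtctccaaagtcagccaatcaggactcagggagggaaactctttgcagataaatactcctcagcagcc
The base composition of these promoters spanned a wide range. Over the 300 bp window that adds the 50 bases from the start, GC content was 81.3% at Tet2, 79.0% at Pik3cb, 72.0% at Irs2, 62.0% at Syf2, 54.3% at Cx3cr1 and 50.3% at Cxcl10. The number of CpG sites in the same windows was 57 at Tet2, 44 at Pik3cb and 41 at Irs2, but 5 at Cx3cr1 and 10 at Cxcl10.

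The untreated-pair regions were mostly weak peaks in the untreated libraries. The score is the authors' value for each peak, at least 50 in every list and up to 3100. In the WT untreated list the scores of these regions ran from 50.0 to 290.4, with a median of 80.1 (quartiles 64.5 and 104.4). In the KO untreated list they ran from 50.0 to 221.5, with a median of 68.5 (quartiles 58.4 and 85.3). Regions with a peak in all 4 libraries (6672) had medians of 190.2 in WT untreated and 151.2 in KO untreated, and regions with both untreated peaks and 1 IL-4 peak (2722) had 102.8 and 83.2. A score of 100 or more in both untreated libraries was reached by 128 untreated-pair regions, one of 150 or more by 4 and one of 200 or more by 1. In either untreated library, 100 or more was reached by 748, 150 or more by 106 and 200 or more by 11. In 144 regions both scores were under 60.

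The 2 untreated peaks of a region lay on the same DNA. Their overlap had a median of 99.5% of the shorter peak and was at least 50% of it in 2118 regions (98.7%). One peak per library made up 2111 of the regions. The merged region had a median width of 496 bp (194 to 3231), against 763 bp for the regions with a peak in all 4 libraries. The WT and KO percentile ranks had a Pearson correlation of 0.27 and a Spearman correlation of 0.26 across the 2145 regions, and 0.72 and 0.77 across all 11539. The points share their 2 libraries, and the choice of regions narrows the range of ranks, so the correlations are descriptions. The plot of WT against KO scores shows the chosen regions in the low corner of the distribution.

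**Figure D1:**
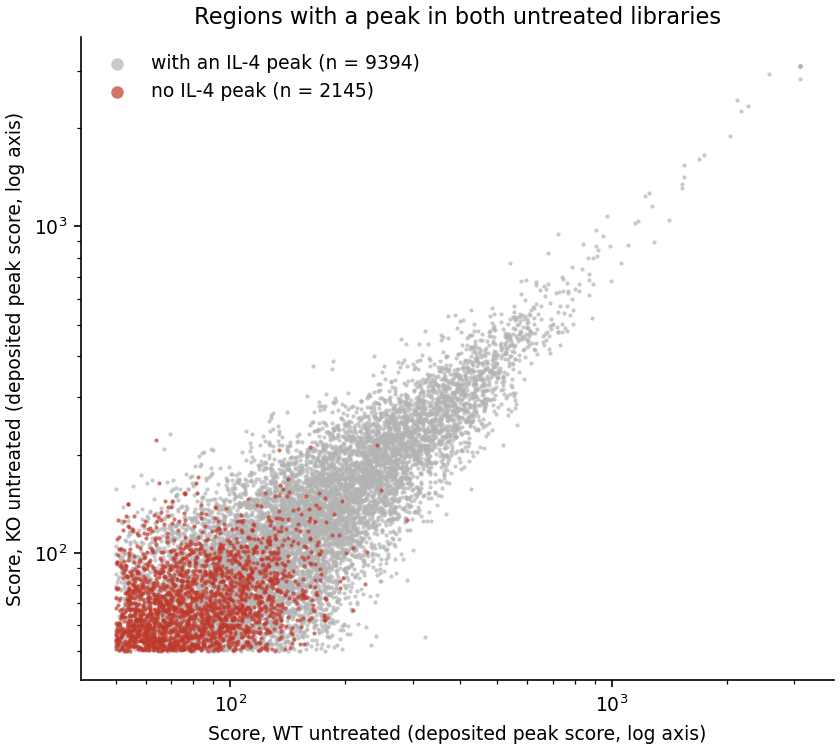
Score in the KO untreated library (vertical log axis) against score in the WT untreated library (horizontal log axis) for the 11539 regions with a peak in both, 1 point per region. Red points are the 2145 regions with no IL-4 peak, which reach 290.4 in WT and 221.5 in KO, and grey points are the 9394 with one, which reach 3100 in both.

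The share of regions without an IL-4 peak fell with the strength of the untreated peaks. The 11539 regions were split into 10 bins of near equal size by the lower of their 2 untreated percentile ranks. In the lowest bin 581 of 1154 regions had no IL-4 peak (50.3%, 47.4 to 53.3). In the following bins the share was 44.2%, 34.7%, 27.1%, 17.5%, 7.99%, 3.29%, 0.606% and 0.087%. In the highest bin it was 0 of 1154 regions, which allows a share of up to 0.319%. Since the same ranks order the regions, this is a description of the rule's outcome. The lowest 5 bins held 2007 of the 2145 untreated-pair regions. The next comparisons are therefore also given within these bins.

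Other regions came close to the same class. Of the 2722 regions with both untreated peaks and 1 IL-4 peak, 793 (29.1%) had that IL-4 peak at a score under 60. A region inside Dlgap1 (chr17:70728612-70729444) had scores of 138.9 in WT untreated and 171.1 in KO untreated, and missed the class by a KO IL-4 peak of score 50.0. Regions at Cdk5rap1 (chr2:154372533-154372923, 91.6 in WT and 61.0 in KO) and inside AU040320 (chr4:126850067-126850623, 75.6 in WT and 88.0 in KO) missed it by KO IL-4 peaks of 50.0 and 50.1. At the lower end of the class, the 3 lowest-ranked regions lay inside Swap70 (50.0 in WT, 52.9 in KO), Tnks (65.9 and 50.0) and Hdlbp (50.0 and 78.2).

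Among regions with both untreated peaks, those without an IL-4 peak lay at gene edges less often than those with one. A region within 1 kb of either end of a protein-coding gene was counted as a gene edge, a region elsewhere within the gene's span as inside, and all others as distal. The annotation used here gives gene spans without exons, so exons and introns were not separated. Of the untreated-pair regions 33.6% (721, 31.6 to 35.7) were at an edge, 37.8% (811, 35.8 to 39.9) inside a gene and 28.6% (613, 26.7 to 30.5) distal. The edge share was 63.4% (62.3 to 64.6) for regions with a peak in all 4 libraries and 44.5% (42.6 to 46.3) for those with both untreated peaks and 1 IL-4 peak. It was lower, at 22.6% (21.3 to 23.9), for the 3916 regions with a WT untreated peak alone and, at 24.4% (22.2 to 26.6), for the 1540 with a KO untreated peak alone. For the 127 regions with a peak in both IL-4 libraries only it was 21.3% (14.5 to 29.4). Position was not used by the rule. The median distance to the nearest gene end was 6459 bp for the untreated-pair regions, 2590 bp with 1 IL-4 peak and 0 with a peak in all 4 libraries.

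The edge share also differed with the strength of the untreated peaks. Within the lowest 5 bins of untreated rank, 33.2% (31.2 to 35.3) of 2007 untreated-pair regions were at an edge, against 42.0% (40.4 to 43.6) of 3764 regions with an IL-4 peak. Within the highest 5 bins the shares were 39.1% (30.9 to 47.8) of 138 and 68.6% (67.4 to 69.8) of 5630. In each of the lowest 7 bins the edge share was lower in the untreated-pair regions, from 30.1% against 35.8% in the lowest bin to 34.8% against 55.5% in the sixth and 44.7% against 60.1% in the seventh. The 2 intervals were apart in the fifth and the sixth of these bins and overlapped in the others. Where RefSeq gave a strand, 532 of 595 edge regions lay at the gene's start only (89.4%), 32 at its end only and 31 at both, against 93.6% at the start only for regions with a peak in all 4 libraries. The untreated-pair regions at edges thus lay mostly at gene starts.

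**Figure D2:**
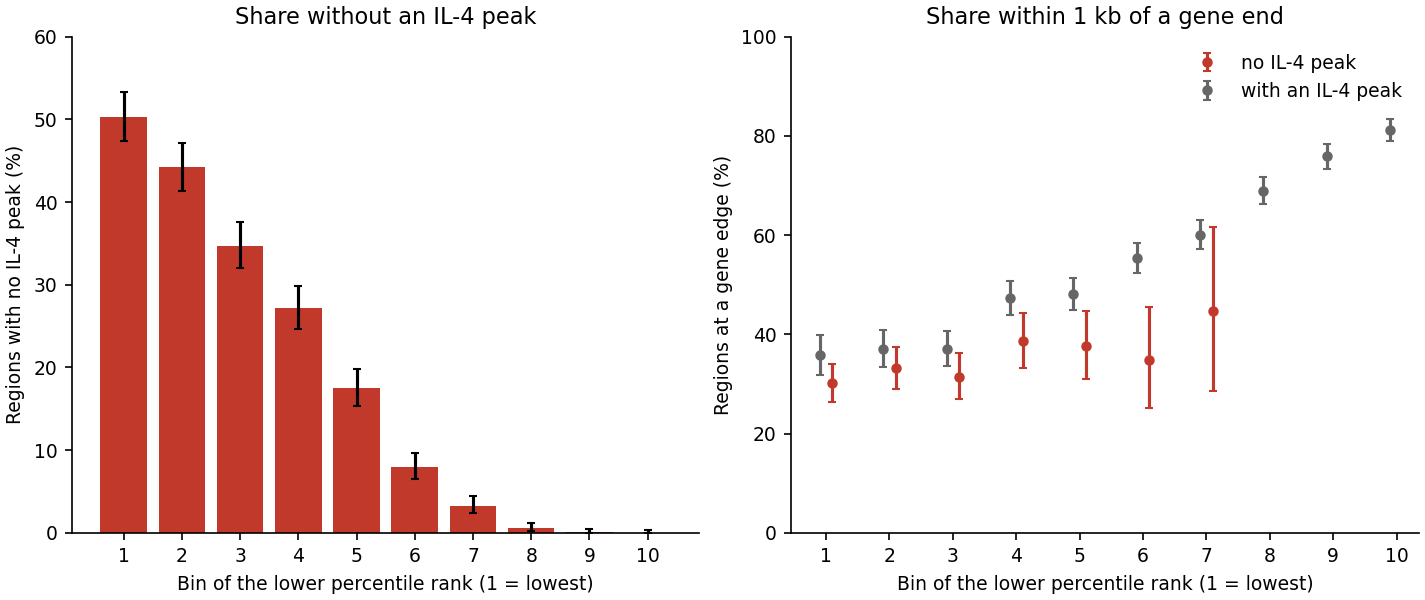
Left, percent of the 11539 regions with both untreated peaks that had no IL-4 peak, by bin of the lower untreated percentile rank. It falls from 50.3% to 0. Right, share within 1 kb of a gene end (percent) for regions without (red) and with (grey) an IL-4 peak in the same bins, shown for red where the bin held 38 or more such regions. Bars are exact 95% intervals for counting error.

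Chromosome X held a larger share of untreated-pair regions than the autosomes. On X, 66 of 239 regions with both untreated peaks had no IL-4 peak (27.6%, 22.0 to 33.7), against 2078 of 11287 on the autosomes (18.4%, 17.7 to 19.1). Within the lowest 5 bins of rank the shares were 62 of 128 on X (48.4%, 39.5 to 57.4) and 1944 of 5640 on the autosomes (34.5%, 33.2 to 35.7). The intervals of X and the autosomes did not overlap in either comparison, but they cover counting error in 4 libraries only. Among autosomes the share ran from 13.9% on chromosome 18 (47 of 339) and 14.7% on chromosome 10 (96 of 651) to 22.2% on chromosome 3 (134 of 604, 18.9 to 25.7). On chromosome Y it was 1 of 13. Within the lowest 5 bins chromosome 3 stood at 127 of 301 (42.2%, 36.5 to 48.0). That interval overlapped the one of X and lay above that of the pooled autosomes.

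The nearest IL-4 peak usually lay more than 10 kb away. The median distance from an untreated-pair region was 34444 bp to the nearest WT IL-4 peak and 32277 bp to the nearest KO IL-4 peak, with lower quartiles of 11855 and 11536 bp. An IL-4 peak of either genotype lay within 500 bp of 57 regions (2.66%), within 2000 bp of 170 (7.93%) and within 10 kb of 602 (28.1%). Another untreated-pair region lay within 10 kb of 147 of the regions (6.85%). This share was not computed for other regions, and the rule excludes an overlapping IL-4 peak, so these distances are descriptions.

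**Figure D3:**
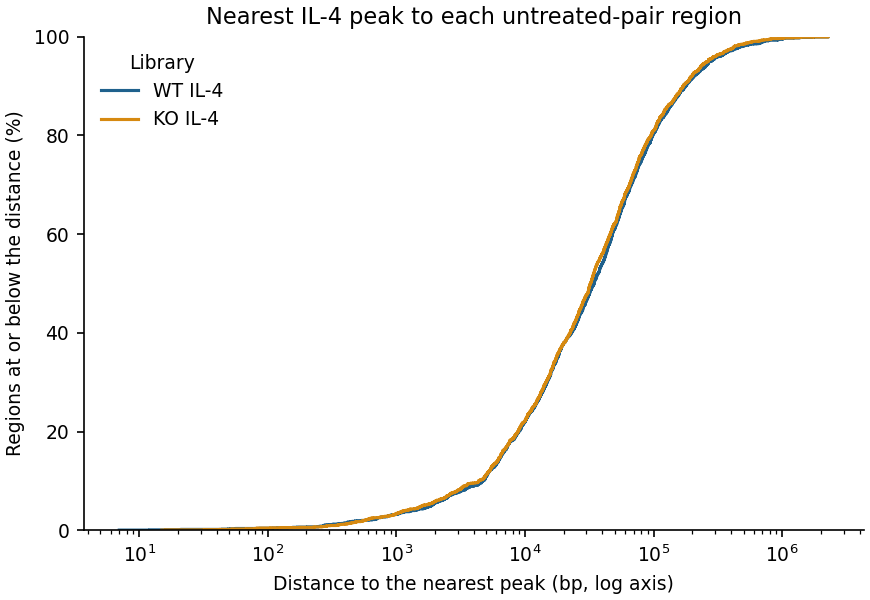
Cumulative share of the 2145 untreated-pair regions (percent, vertical axis) by distance in bp to the nearest peak of the WT IL-4 library (blue) and the KO IL-4 library (orange), on a horizontal log axis. The curves nearly coincide, with medians of 34444 and 32277 bp.

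With a gene's locus taken as its span and 10 kb on each side, 2204 of 21887 protein-coding genes (10.1%) had an untreated-pair region at the locus. Of these, 1345 had an IL-4 peak elsewhere at the locus and 859 (39.0%) had none in either IL-4 library. The same share was not computed for other loci, and the rule itself removes any IL-4 peak at the region, so 39.0% is a description. A single untreated-pair region was found at 1978 of the genes, 2 at 192, 3 at 32 and 4 at 2 genes, Bach2 and Nrp2. Bach2, a transcriptional repressor best known in lymphocytes, had 6 peaks in each untreated library and 1 in each IL-4 library. Its 4 untreated-pair regions lay inside the gene on chromosome 4, with scores of 95.6, 87.5, 96.1 and 84.8 in WT and 103.6, 61.1, 60.01 and 56.1 in KO. Nrp2, a co-receptor for semaphorins and VEGF, had 4 peaks in WT untreated, 5 in KO untreated and none with IL-4. One of its 4 regions, at the gene edge (chr1:62703000-62703530), scored 58.0 in both libraries, and the other 3, inside the gene, scored 81.7, 120.3 and 128.7 in WT against 65.6, 64.4 and 50.7 in KO. All 4 KO scores at Nrp2 were below the median of the KO untreated list.

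The 20 highest-ranked untreated-pair regions had scores of 137.3 to 247.7 in WT untreated and 126.8 to 214.7 in KO untreated and widths of 502 to 1134 bp. Of these, 11 were at a gene edge, 3 inside a gene and 6 distal. Of the 14 at an edge or inside, 8 had no IL-4 peak anywhere at that gene's locus. The same share was not computed for lower-ranked regions, so this count is a description. The highest-ranked region lay inside Syp (chrX:7648577-7649291), which encodes the synaptic vesicle protein synaptophysin, with scores of 242.6 in WT and 214.7 in KO. It was the only region in the class above 200 in both. Second was a distal region 19709 bp from Kcnj2 (chr11:111096534-111097039), an inward rectifier potassium channel gene, with 247.7 in WT and 155.9 in KO. The third lay at the edge of Aipl1 (chr11:72041761-72042625), the gene of a photoreceptor co-chaperone, with 170.3 and 152.2. Neither Syp nor Aipl1 had another peak at its locus in any library.

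The region at the Pik3cb promoter (chr9:99140069-99140706) scored 196.2 in WT and 144.4 in KO. Its locus had 3 peaks in WT untreated, 2 in KO untreated, 1 in WT IL-4 and none in KO IL-4. The region at the Syf2 promoter (chr4:134930678-134931242) scored 146.0 in WT and 135.0 in KO. The Syf2 locus had 2 peaks in each untreated library and none with IL-4. At Acot13, an acyl-CoA thioesterase gene, the edge region (chr13:24831270-24831771) scored 161.8 in WT and 211.7 in KO. Dhx16 (an RNA helicase of splicing) had an edge region with 167.4 in WT and 140.5 in KO, and Mrpl45 (a mitochondrial ribosomal protein) one with 171.0 and 137.1. The edge region of Slc25a23, a mitochondrial carrier gene, had 187.0 and 132.0, and that of Fam241a 176.7 and 147.8.

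Smad7, the inhibitor of TGF-beta signalling, had an edge region with scores of 160.4 in WT and 136.1 in KO and no other peak at its locus in any library. The edge region of Daxx, an H3.3 histone chaperone gene, also covered the Zbtb22 promoter (chr17:33915567-33916346) and scored 141.3 in WT and 167.8 in KO. The nearest WT IL-4 peak was 2998 bp away. Armc9 had an edge region with 137.3 and 156.6. Inside genes lay the regions of Ltbp2, a matrix protein of the latent TGF-beta binding family (150.3 in WT, 135.9 in KO), and Chn2, a GTPase-activating protein for Rac (161.8 and 128.0). Distal regions were nearest to Rmnd5a (141.7 in WT and 126.8 in KO, 17227 bp away), Ebf2 (157.4 and 149.7, 44243 bp), Rap2b (140.9 and 149.6, 72524 bp) and Actbl2 (142.4 and 153.9, 311475 bp). The region nearest to Actbl2 had IL-4 peaks 697 bp (WT) and 650 bp (KO) away, the closest among the 20.

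The alternative activation list gave 3 of 19 regions with both untreated peaks (15.8%, 3.38 to 39.6), beside 17.4% (1725 of 9908) over all protein-coding loci. Of the individual genes looked up here, no library had a peak at Retnla, Chil3 or Nos2 (a gene of classical activation), so these could hold no untreated-pair region. Stat6 had 3 peaks in WT untreated, 3 in KO untreated, 2 in WT IL-4 and 3 in KO IL-4, and Irf1 had 2 in each, with no untreated-pair region at either locus. Il4ra, the receptor chain for IL-4, had 3 peaks in WT untreated, 1 in KO untreated and none with IL-4. Its untreated-pair region (chr7:125555333-125555946), inside the gene, scored 105.8 in WT and 81.0 in KO. Mrc1, the mannose receptor gene, had 2 peaks in each untreated library and none with IL-4, and its untreated-pair region (chr2:14249935-14250323), inside the gene, scored 56.9 and 55.6. The region counted for Arg1, the arginase gene (chr10:24911218-24911767, 120.0 in WT and 67.2 in KO), lay inside the neighbouring gene Med23, 3440 bp from the nearer end of Arg1. The third region of the list was counted for Kdm6b, a histone demethylase gene, and lay at the edge of Cyb5d1 (62.5 and 53.2).

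Gene lists were described by the share of their untreated-peak regions, those with a peak in both untreated libraries at a list gene's locus, that were untreated-pair regions. Over all protein-coding loci this share was 17.4% (1725 of 9908 regions). For 18 of the 19 lists with 5 or more such regions, the exact interval of the share included this value. The exception, chemokines and their receptors, is given next. The intervals were not adjusted for the number of lists. An exception among 19 lists can arise from counting error alone, so this list is not set apart from the others. A total of 96 untreated-pair regions lay at 83 list genes, and 72 of the 96 had a list gene as their nearest gene.

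Chemokine and receptor genes had the highest share among these lists, at 7 of 14 regions (50.0%, 23.0 to 77.0), and 3 of the 7 lay at Cx3cr1. The 14 regions were weak, with a median lower percentile rank of 26.7 against 53.8 over all protein-coding loci. Within the lowest 5 bins of rank the count was 6 of 10, beside 34.8% of all regions in those bins. No interval was computed for this count, so the list is not set apart from 34.8% there. At Cx3cr1 the promoter region (chr9:120068136-120068612) scored 112.5 in WT and 85.6 in KO, the region at its other end (chr9:120049344-120049819) 65.3 and 86.5, and a region 5139 bp away (chr9:120043089-120043544) 95.9 and 68.1. The Cx3cr1 locus had 4 peaks in WT untreated, 3 in KO untreated and 1 in each IL-4 library. The list's highest-ranked region was inside Cxcr4, the receptor for CXCL12 (chr1:128590722-128591239, 106.7 in WT and 130.9 in KO), with a KO IL-4 peak 1043 bp away. The remaining 3 lay at Cxcl10, where the promoter region (chr5:92348683-92349139) scored 56.2 in WT and 65.4 in KO and a region in the neighbouring gene Art3 52.1 and 58.1, and between Cxcl1 and Cxcl2 (77.6 and 62.4). Cxcl10 had no peak in either IL-4 library.

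For the IL-4 receptor and JAK-STAT list, 6 of 28 regions were untreated-pair regions (21.4%, 8.30 to 41.0), 1 at each of 6 genes. The highest-ranked lay inside Ptpn6, which encodes the phosphatase SHP-1 (chr6:124723557-124724111, 138.1 in WT and 85.7 in KO). The Irs2 promoter region (chr8:11008698-11009869) scored 82.3 in WT and 170.3 in KO. Its locus had 2 peaks in WT untreated, 1 in KO untreated and none with IL-4. The others were Il4ra, Socs3 (a feedback inhibitor of cytokine signalling, 73.7 and 76.5, edge), Jak2 (107.5 and 62.9, 9816 bp from the gene) and Jak3 (88.0 and 51.4, edge). Il4ra, Irs2 and Jak3 had no IL-4 peak at their loci.

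Macrophage genes were represented by a few weak regions. Among surface and complement genes 6 of 24 regions were untreated-pair regions (25%, 9.77 to 46.7), of which 3 were those at Cx3cr1. The others lay at the edge of Trem2 (79.8 in WT and 80.0 in KO, with a KO IL-4 peak 528 bp away), inside Mrc1 and at the edge of Lgals3 (53.0 and 52.8). Among 21 regions at lineage transcription factor genes 3 were untreated-pair regions (14.3%), all inside genes. They were at Runx1 (69.98 and 61.4), Fli1 (58.6 and 82.7) and Tfec (88.8 and 55.4). The Fli1 region had a WT IL-4 peak 278 bp away.

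Interferon, inflammatory and immediate early genes had shares of 6 of 30 (20%), 5 of 31 (16.1%) and 7 of 31 (22.6%). Interferon genes included edge regions at Ifih1 (a sensor of double-stranded RNA, 61.3 in WT and 77.3 in KO) and Oas2 (59.9 and 82.8), each the only untreated peak at its gene. Inflammatory genes included regions inside Nfkb1 (109.0 and 80.1) and Tlr2 (71.0 and 79.9) and 2 counted for Irak3, a negative regulator of Toll-like receptor signalling. The higher-ranked of these 2 (80.7 and 95.2) lay at the edge of Tmbim4, 6342 bp from Irak3. The Irak3 edge region scored 78.3 and 109.1, and Irak3 had no IL-4 peak. The highest-ranked immediate early region was counted for Nr4a1 (114.9 and 92.8) but lay 9065 bp from it, at the edge of Atg101. Dusp1, a MAP kinase phosphatase gene, had an edge region with 76.9 and 61.1, and Fos one 1315 bp away with 50.8 and 60.9.

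Among metabolic genes, 10 of 38 glycolysis regions (26.3%, 13.4 to 43.1) and 4 of 28 oxidative phosphorylation regions (14.3%) were untreated-pair regions. The highest-ranked glycolysis region was at the shared edge of Pfkm and Senp1 (82.9 in WT and 106.9 in KO), followed by one 2026 bp from the glucose transporter gene Slc2a3 (77.7 and 76.5). Hk3 had an edge region (91.4 and 62.9) and no other peak. Hk1 had 2 regions inside the gene, with 146.7 and 72.2 in WT but 54.7 and 53.4 in KO. The edge regions of Gapdh (58.2 and 62.2) and Pfkl (63.9 and 54.7) had IL-4 peaks as near as 369 and 68 bp. For oxidative phosphorylation, the highest-ranked region lay inside Ppargc1b, a coactivator of mitochondrial genes (82.5 and 88.3). The edge region of the cytochrome oxidase gene Cox4i1 scored 122.2 and 68.3 and that inside Cox5a 63.5 and 70.04, with no other peak at either locus. Of 13 regions at creatine and arginine genes 2 were untreated-pair regions, both nearest to other genes (Med23 for Arg1, Trmt61a for Ckb). Lipid and lysosome genes gave 4 of 28 (14.3%) and 7 of 46 (15.2%). Their highest-ranked regions lay inside Rxra, the common partner of nuclear receptors (105.6 and 83.4), and 9986 bp from Ctsd, which encodes cathepsin D (114.1 and 79.1). Abca1, the cholesterol exporter, had a region inside the gene with 87.6 and 64.2 and no IL-4 peak.

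Cell cycle genes gave 9 of 36 regions (25%, 12.1 to 42.2). Within the lowest 5 bins of rank, where 34.8% of all regions had no IL-4 peak, the count was 9 of 13 for cell cycle, 10 of 20 for glycolysis and 7 of 16 for immediate early genes. It was 6 of 16 for macrophage surface genes and 3 of 6 for dendritic cell genes. Lists below 34.8% there were interferon and IL-4 receptor (6 of 19 each), lipid and oxidative phosphorylation (4 of 15 each) and inflammatory (5 of 20). Also below were chromatin (5 of 21), lysosome (7 of 24), alternative activation (3 of 13), lineage factors (3 of 14) and housekeeping (3 of 11). So were creatine and arginine genes (2 of 7) and MHC class II genes (0 of 2). No intervals were computed for these small counts within the bins, so no list is set apart from 34.8% here. Cdk6, a G1 cyclin-dependent kinase gene, held 3 of the 9 cell cycle regions inside the gene, with 132.1, 83.8 and 58.6 in WT and 92.4, 105.7 and 59.2 in KO, and these were its only untreated peaks. Cdk6 had no IL-4 peak. Mcm2, a subunit of the replicative helicase, had an edge region with 98.6 and 95.4. Chromatin regulators gave 5 of 42 (11.9%), led by a region inside Hdac7 (121.5 and 81.5). The Tet2 edge region (chr3:133544043-133544699) scored 71.0 and 64.4 and was the only peak at its locus in either untreated library, with none with IL-4. Housekeeping genes gave 4 of 32 (12.5%), led by a region counted for Tbp that lay at the edge of Pdcd2 (150.5 and 122.3). MHC class II genes gave 0 of 5.

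Markers of other cell types held few regions. Dendritic cell genes gave 3 of 9, counted for Xcr1 (2, of which 1 lay inside Fyco1) and Clec9a. The Clec9a region, the highest-ranked, lay in the neighbouring gene Clec12b (86.8 and 61.8). T and B cell genes gave 1 of 3 each, nearest to Ube4a and Trappc5 (counted for Cd3g and Fcer2a). The T cell region scored 110.9 and 95.5 and the B cell region 93.0 and 71.6. Neuron and hepatocyte genes gave 1 of 2 (counted for Slc17a7, at the edge of Pth2, 163.1 and 71.8). Neutrophil and erythroid genes gave 0 of 3 each. Mast cell and fibroblast genes had no region with a peak in both untreated libraries.

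**Figure D4:**
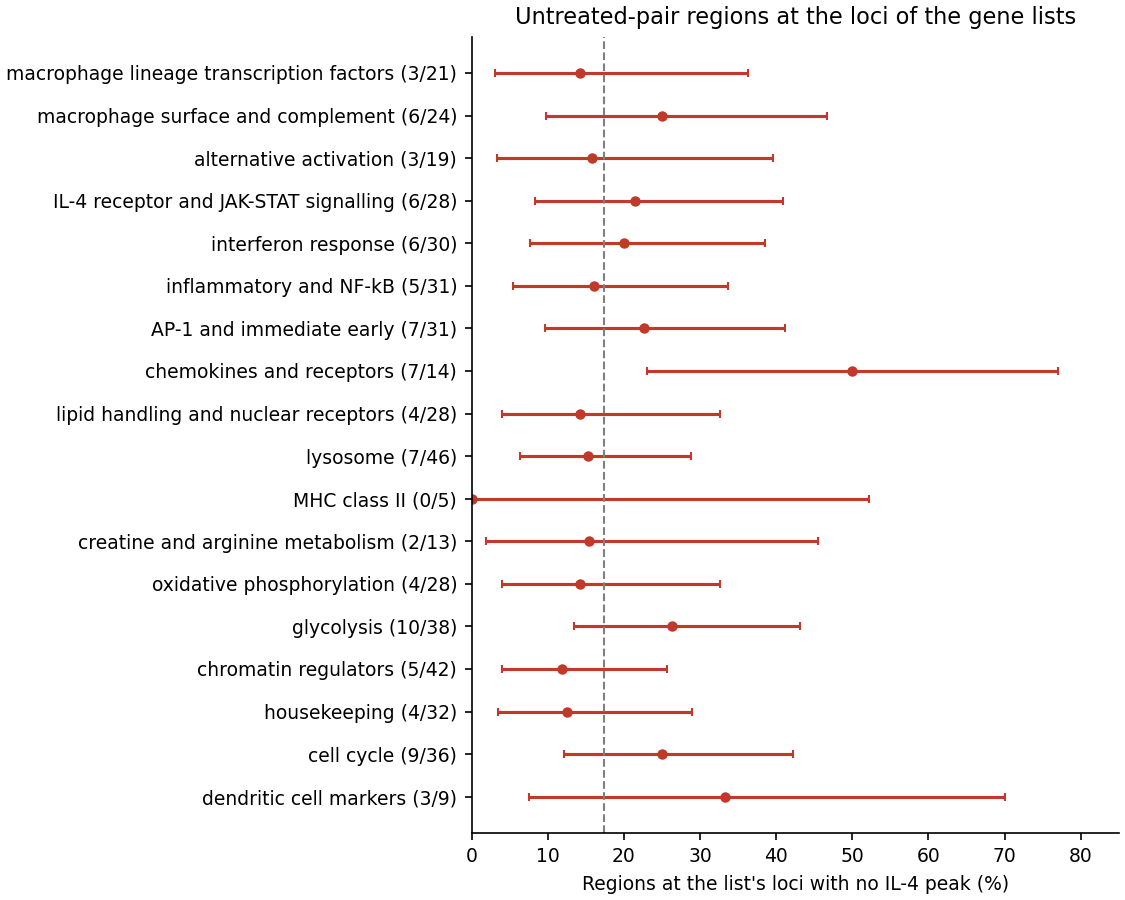
Percent of regions with both untreated peaks that had no IL-4 peak (horizontal axis) at the loci of the gene lists described in the text with 5 or more such regions, with counts in brackets. Bars are exact 95% intervals for counting error and the dashed line is the 17.4% over all protein-coding loci. The interval of chemokines and receptors (23.0 to 77.0) alone lies off the line. The intervals are not adjusted for the number of lists, so this does not set the list apart.

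Promoters in the class were searched for 14 short motifs on both strands. RefSeq gave 21238 windows of 300 bp, from 250 before to 50 after a start, for 17492 genes, and 405 windows lay wholly within 357 untreated-pair regions, against 4329 within regions with a peak in all 4 libraries. Windows for the other members were not used here. The letters searched, with N for any base, were TGACTCA (AP-1), GAGGAAGT (PU.1), TTGCNNAA (C/EBP), GAAANNGAA (ISRE, bound by IRF proteins), GGGNNTTTC or GGGNNTTCC (NF-kB), TTCNNNGAA (STAT), TTC and GAA 4 bases apart (STAT6), AGGTGGCAG or AGGGGGCGC (CTCF), AACCACA (RUNX), CACGTG (the E-box of USF and MITF), CCGGAAGT (ETS), CGCATGCG (NRF), GGGGCGGGG (SP/KLF) and TGCTGAC (MAF). The PU.1 and ETS motifs share their last 6 letters, and a window can match several motifs. A match is a description of letters and not a bound site.

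The promoters had much the same GC content and number of CpG sites as other promoters with peaks. GC content had a median of 62.3% in the 405 windows, 63.0% in those of regions with a peak in all 4 libraries and 56.3% over all 21238, and CpG sites had medians of 23, 24 and 13. SP/KLF letters were found in 28.1% (23.8 to 32.8) of the 405 windows, 26.7% (25.3 to 28.0) of the windows with a peak in all 4 libraries and 15.3% of all windows. ETS letters were in 11.9%, 10.7% and 5.15%, and NRF letters in 4.94%, 5.66% and 2.51%. These 3 motifs are common in promoters rich in CpG, such as that of Pik3cb above.

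The motifs of signal-dependent factors had shares between 2.72% and 9.63%. AP-1 letters were in 2.72% of the untreated-pair windows, 2.89% of windows with a peak in all 4 libraries and 4.66% of all windows, and STAT6 letters in 3.46%, 4.62% and 6.34%. STAT letters were in 5.19%, 6.33% and 7.69%, NF-kB letters in 9.63%, 12.0% and 9.89%, and ISRE letters in 8.15%, 5.54% and 8.13%. Shares for lineage factors were 3.70%, 3.33% and 3.13% for PU.1, 7.90%, 7.23% and 10.2% for C/EBP, and 2.47%, 2.80% and 4.71% for RUNX, and CTCF letters stood at 2.47%, 2.47% and 2.48%. The Cxcl10 promoter shown above held ISRE, NF-kB and AP-1 letters together. Small shares of 405 windows carry wide intervals, such as 1.36 to 4.81% for AP-1. Within the lowest 5 bins of untreated rank, ISRE letters were in 9.04% (6.3 to 12.5) of untreated-pair windows. The share was 5.71% (4.03 to 7.82) of windows with a peak in all 4 libraries. STAT6 letters were in 2.19% (0.951 to 4.27) and 4.29% (2.84 to 6.17) in that order, and the intervals overlapped for both motifs.

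E-box letters were in 15.1% (11.7 to 18.9) of the untreated-pair windows, 10.9% (10.0 to 11.9) of the windows with a peak in all 4 libraries and 7.84% of all windows. MAF letters were in 5.43% (3.44 to 8.11), 3.19% (2.69 to 3.76) and 4.30%. For both motifs the intervals of the first and second classes overlapped. In the 957 windows of regions with both untreated peaks and 1 IL-4 peak, E-box letters were in 12.6% (10.6 to 14.9). MAF letters were in 1.88% (1.12 to 2.96) of them, an interval below that of the untreated-pair windows, while the E-box intervals overlapped. Within the lowest 5 bins of untreated rank, untreated-pair windows (365) were set against windows with a peak in all 4 libraries (630). E-box letters were in 15.9% (12.3 to 20.1) against 12.4% (9.91 to 15.2), and MAF letters in 5.48% (3.38 to 8.34) against 2.06% (1.10 to 3.50). For both motifs these intervals overlapped. The 39 windows of regions with untreated scores of 100 or more gave other values. There E-box letters were below the share of windows with a peak in all 4 libraries, at 7.69% (1.61 to 20.9), and STAT6 letters above that for STAT6, at 12.8% (4.30 to 27.4). AP-1, ISRE and CTCF letters were in 0 of 39 windows, which allows up to 9.03%, NF-kB and NRF letters in 2.56%, PU.1 and STAT letters in 7.69%, ETS letters in 23.1% and SP/KLF letters in 43.6% (27.8 to 60.4). For E-box, ISRE, STAT and STAT6 the direction against that class thus turned.

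**Figure D5:**
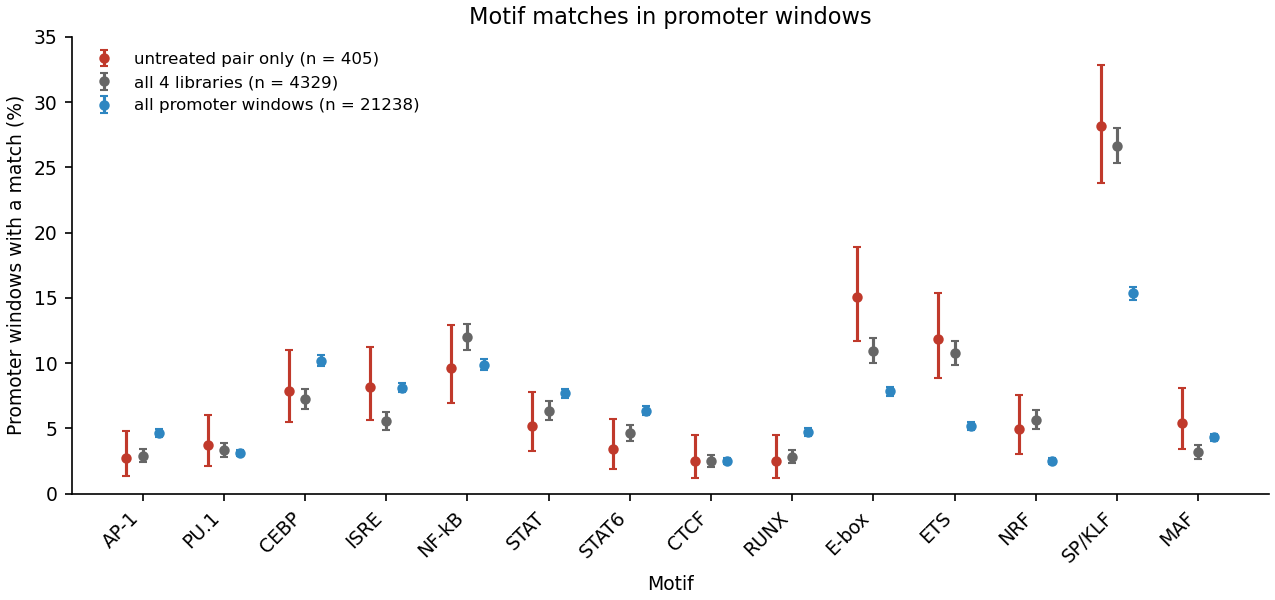
Share of promoter windows with at least 1 match on either strand (percent, vertical axis) for each motif (horizontal axis) in windows within untreated-pair regions (red, 405), within regions with a peak in all 4 libraries (grey, 4329) and in all windows (blue, 21238). Bars are exact 95% intervals for counting error. Red and grey intervals overlap for E-box (15.1% and 10.9%) and MAF (5.43% and 3.19%).

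Near microRNA genes, 9 untreated-pair regions lay within 1 kb of an annotated hairpin. The same count was not made for other regions, so this number has no background share. Some of the 9 overlapped their hairpin, but those named here did not. One of the 9 (chr10:122986136-122986697) was 412 bp from the let-7i hairpin and scored 136.4 in WT and 60.1 in KO. Another (chr9:108569678-108570233) was 817 bp from that of miR-425 and scored 118.6 and 68.5. Over the class, the WT score exceeded the KO score in 1433 of 2145 regions, but scores rank peaks only within a list. The whole WT untreated list also had the higher median score, at 101.1 against 94.3 for KO. The same count was not made for other regions with both untreated peaks.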

How the data were processed

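ATAC-seq peak lists of 4 libraries, 1 per group, were used. Per the submitters' processing notes, which state neither roles nor parameters, the build was mm10 and the tools were Bowtie2 2.2.5, MACS 1.4.2 and HOMER (no version). The score in each list is the authors' deposited value for a peak, with no unit stated in a file header, and ranks peaks only within its list. The sources used here do not give the read depth. Each list belongs to 1 library.

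Peaks overlapping by 1 bp or more were merged. A gene edge was 1 kb from either end of a gene span, and a locus the span with 10 kb on each side, in RefSeq's GRCm38.p6. Of 499 different genes in 26 lists, 498 were matched by symbol. The regions and the lists were chosen with earlier results of these data known. Promoter windows, absent for chromosome 18, replaced the planned windows around region centres, since no genome sequence was used here. Shares carry exact Clopper-Pearson 95% intervals. With 1 library per group no test was run.

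Named in full were the 20 highest-ranked and 3 lowest-ranked regions, the highest-ranked one at each list's loci, those at Il4ra, Stat6, Irf1, Slc6a8, Nos2, Arg1, Mrc1, Chil3 and Retnla, and genes with 4 or more. Some items that this rule names are not reported here. Other list genes, the 2 microRNA genes and the promoters shown were chosen after their values were seen.

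Alternatives were overlap of 50%, no IL-4 peak within 500 or 2000 bp, equal list lengths, scores of 100 or more, autosomes only, edges of 500 bp or 2.5 kb and loci of 50 kb. The split by untreated rank of positions, motifs and chromosomes was added after the data were seen. Scripts ran in Python 3.11.15 with SciPy 1.17.1, pandas 2.3.3, NumPy 2.4.6 and Matplotlib 3.10.9. The merging was tested on simulated data that kept the 17339 WT untreated peaks, where 498 of 500 planted regions were found and 498 were called.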

Additional observations from a re-analysis of the deposited data

How the results depend on the processing

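The number of untreated-pair regions rested mainly on which peaks of each list entered. With lists cut to the 9930 highest-scoring peaks, the lowest score kept was 89.6 in WT untreated, 67.8 in KO untreated, 50.0 in WT IL-4 and 52.2 in KO IL-4, and 566 regions (7.34% of those with both untreated peaks) remained without an IL-4 peak, 537 of them among the 2145. With untreated scores of 100 or more and IL-4 peaks at any score, 128 regions (2.26%) were left, and with scores of 100 or more in all lists 1440 (25.4%), of which 128 were among the 2145. With no IL-4 peak within 2000 bp the share was 17.1% (1975 regions). Overlap of 50% of the shorter peak or of both peaks, no IL-4 peak within 500 bp and autosomes only gave 2147, 2083, 2088 and 2078 regions.

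The edge share was 38.5% at equal list lengths, 39.8% with untreated scores of 100 or more, 39.5% with an edge of 2.5 kb and 30.5% with one of 500 bp, and the inside share was 34.3%, 32.0%, 33.8% and 40.0% in that order. The distal share with the 2.5 kb edge was 26.7%. The edge share minus that of the other regions with both untreated peaks was -24.3 percentage points and stayed negative in every alternative run, at -29.1 with untreated scores of 100 or more. None of these alternatives matched the 2 classes on untreated rank. Within the lowest 5 bins of untreated rank the edge shares were closer, at 33.2% against 42.0%. Gene and list pairs with an untreated-pair region numbered 89, but 165 with loci of 50 kb and 22 at equal list lengths. Of 28 motif shares under alternatives, 13 lay outside the interval of the main share, on 39 or 155 promoter windows. With untreated scores of 100 or more, the shares of E-box (7.69%), ISRE (0), STAT (7.69%) and STAT6 (12.8%), and at equal list lengths that of NRF (7.74%), lay on the other side of the share in windows with a peak in all 4 libraries.

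The planned motif windows around region centres were not run, since only promoter windows had sequence. No paired analysis was possible because the labels give no replicate numbers, each group has 1 library and the scores rank peaks only within a list, so no fit was made and no library was left out. The unknown read depth limits every statement about a missing peak.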
